A study of Canis lupus familiaris with 30 samples.

Results

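PTGS1, GUCY1A1, PDE5A and TFPI were followed in peripheral blood mononuclear cells of dogs fed raw red meat or kibble. The genes were found by matching the RefSeq transcript given for each probe on the array. They have 8 of the 43603 non-control probes, and 4 of the 25950 genes and unnamed transcripts that were tested. The group was chosen because its log2 ratios between the diets and between the weeks stood out on these same arrays, so those ratios are given as a description, with no test.

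Adult dogs ate only a high-protein, high-fat raw red meat diet (7 dogs) or a premium kibble that contains carbohydrate (8 dogs), and gave blood when feeding began (week 0) and 3, 6 and 9 weeks later. Mononuclear cells were separated by density centrifugation, and their total RNA was labelled with Cy3 or Cy5 and hybridised in pairs to 30 Agilent 2-colour arrays. On 14 arrays the meat and kibble samples of 1 week were paired, with 3 arrays each for weeks 0 and 3 and 4 each for weeks 6 and 9. On 16 arrays the later and the earlier week of 1 diet were paired, 4 each for week 6 over week 3 and for week 9 over week 0. The 8 groups are meat and kibble at each of the 4 weeks, with 7 or 8 labelled samples each. The labels state 6 biological replicates, fewer than the 7 or 8 samples of a group, and do not tie an array to a dog. By that count some samples of each group share a dog. By the number of dogs this is certain only for meat at weeks 6 and 9, with 8 samples from 7 dogs. The SE and p-values given here measure the spread between arrays and are too small for the spread between dogs.

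PTGS1 encodes cyclooxygenase-1, which turns arachidonic acid into the precursor of the prostaglandins and of thromboxane A2, the product that activates platelets. GUCY1A1 encodes the alpha-1 subunit of soluble guanylate cyclase, the nitric oxide receptor that makes cGMP, and PDE5A encodes the phosphodiesterase that breaks cGMP down; in platelets cGMP holds back activation. TFPI encodes tissue factor pathway inhibitor, which blocks the start of coagulation and is made by endothelium and carried by platelets.

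The 8 probes cover 1 RefSeq transcript per gene. PTGS1 (NM_001003023) has 2 probes, GUCY1A1 (NM_001018035) has 1, PDE5A (NM_001003188) has 3, of which probe 1 is printed on 5 spots, and TFPI (NM_001003243) has 2. Probe 1 is the brightest of each gene and is meant wherever no probe is named. It stood well above the local background in 60 of 60 channels for all 4 genes. The dimmest was PDE5A probe 3, in 50 of 60 channels.

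On the first slide 2 arrays stood apart from the rest. On replicate 1 of the meat pair of weeks 9 and 0, 42898 spots in Cy3 and 43610 in Cy5 were well above background, and on replicate 1 of the kibble pair of weeks 0 and 9 the counts were 20182 and 19505; on the other arrays they were 21751 to 29248 in Cy3 and 23295 to 31698 in Cy5. The fitted values of the 4 genes for week 9 over week 0, and the list counts that change, are given with and without both.

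In the fit all 4 genes were lower in meat-fed than in kibble-fed dogs, and all 4 were higher at week 9 than at week 0 in both diets. The fitted ratio of meat over kibble was below 0 already at week 0, when feeding began. It was -1.04 ± 0.31 for PTGS1, -0.40 ± 0.30 for TFPI, -0.32 ± 0.25 for PDE5A and -0.26 ± 0.22 for GUCY1A1. From week 0 to week 9 the meat change minus the kibble change was 0.02 ± 0.35, -0.11 ± 0.34, 0.04 ± 0.28 and 0.18 ± 0.25 in that order. As the fitted mean over weeks 3, 6 and 9, the log2 ratio of meat over kibble was -1.19 ± 0.19 for PTGS1, -0.87 ± 0.18 for TFPI, -0.56 ± 0.15 for PDE5A and -0.38 ± 0.13 for GUCY1A1 (fitted value ± SE, 11 direct arrays). These are 2.27-fold, 1.83-fold, 1.47-fold and 1.30-fold lower signals in meat. The median log2 ratio over all 25950 genes and transcripts was 0, and 14.9% of them passed the limma test (Benjamini-Hochberg adjusted p under 0.05) in this comparison, 7.95% as lower in meat; since these ratios chose the 4 genes, nothing is read from that share. Without the 2 arrays that stood apart, the 4 values were -1.16, -0.85, -0.54 and -0.37 in the same order.

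**Figure D1:**
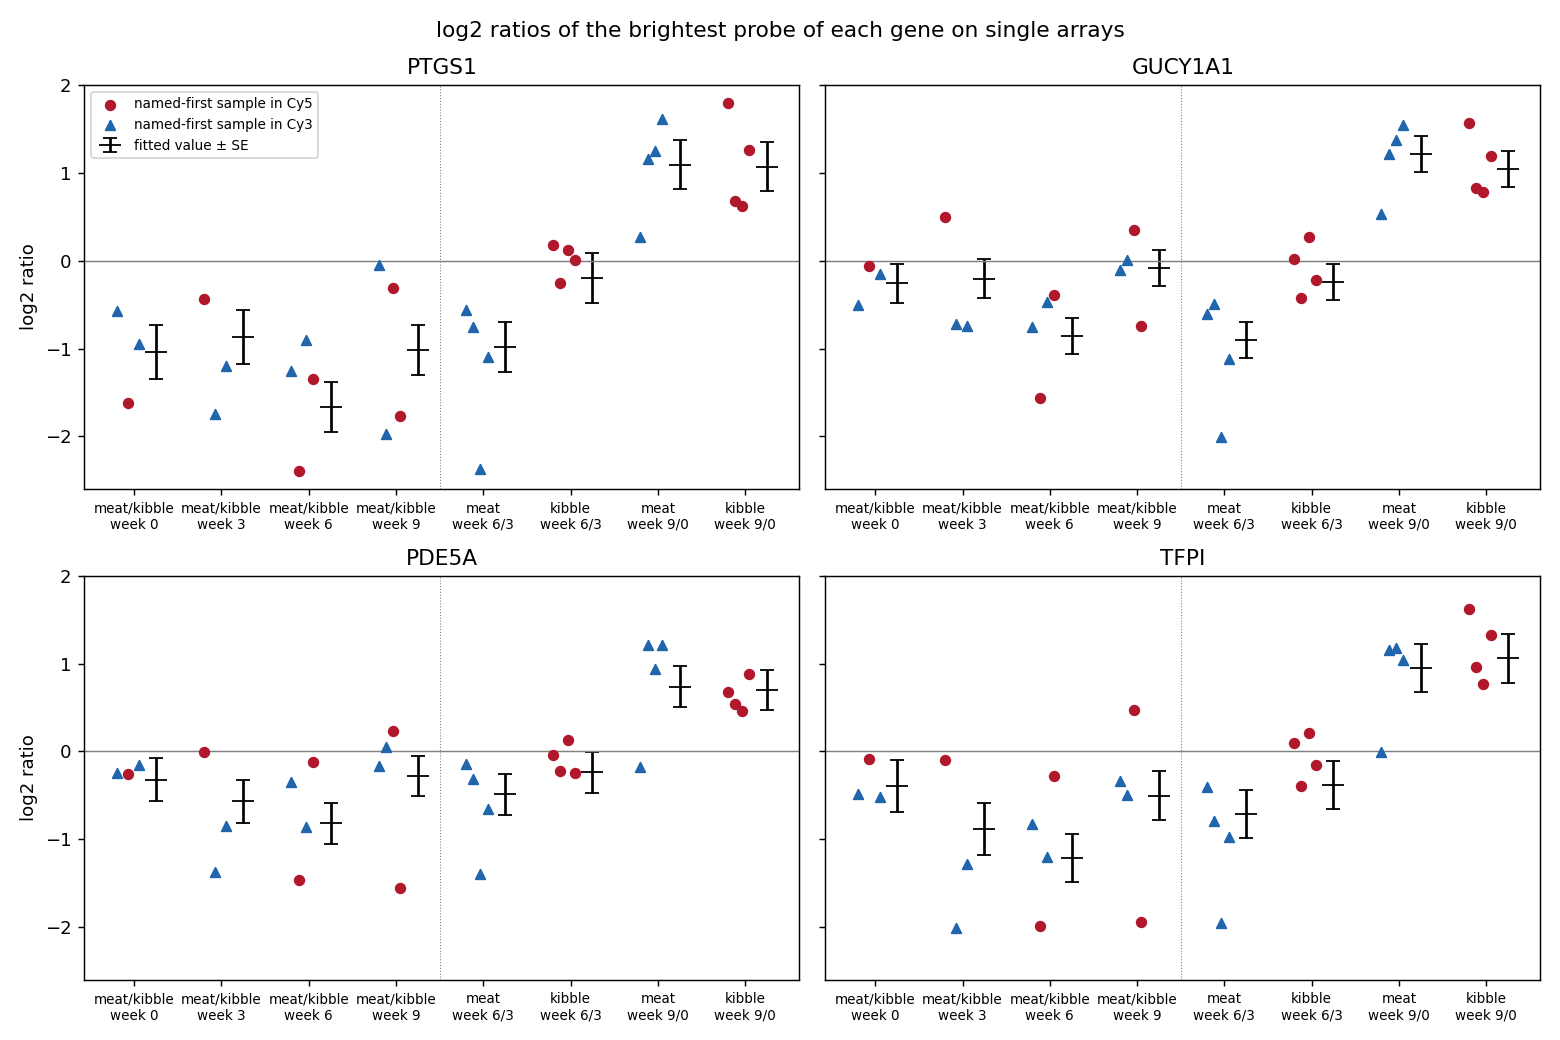
log2 ratios of the brightest probe of PTGS1, GUCY1A1, PDE5A and TFPI on single arrays (points, by dye order) for the 8 pairs of samples compared, with the fitted value ± SE in black. The named-first sample is meat in the meat/kibble pairs and the later week in the others. PTGS1 lies below 0 on 14 of 14 meat/kibble arrays, and the week 9/0 arrays lie above 0 apart from 1 meat array for PDE5A and for TFPI.

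PTGS1, the cyclooxygenase, had the largest diet difference of the 4 genes in the fitted mean. At week 0, when feeding began, its log2 ratio of meat over kibble was -0.57, -1.62 and -0.95 on the 3 arrays, and at week 3 it was -0.44, -1.75 and -1.20. At week 6 it was -1.26, -2.39, -0.90 and -1.35, and at week 9 it was -0.053, -1.98, -0.31 and -1.76. All 14 arrays were below 0, and the spread within each week was wide: at week 9 one pair of arrays lay near 0 and the other pair near -2.

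The fitted log2 ratio of PTGS1 at weeks 0, 3, 6 and 9 was -1.04 ± 0.31, -0.87 ± 0.31, -1.66 ± 0.28 and -1.02 ± 0.28. Signals in meat were lower by 2.06-fold at the start and by 2.03-fold at week 9. The fitted difference at the start of feeding was thus close to that at the end. At week 3 a single array mattered: without replicate 1 of the pair with meat in Cy3, the value was -0.56.

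Over time PTGS1 was higher at week 9 than at week 0 in both diets. The log2 ratio of week 9 over week 0 was 0.27, 1.16, 1.25 and 1.62 on the meat arrays and 1.79, 0.68, 0.63 and 1.26 on the kibble arrays. All 8 arrays were above 0, and the 2 sets overlap. The fitted values were 1.09 ± 0.28 in meat and 1.07 ± 0.28 in kibble, 2.13-fold and 2.10-fold higher signals at week 9, and the meat change minus the kibble change was 0.02 ± 0.35. The lowest meat array and the highest kibble array are those that stood apart; without them the fitted values were 1.21 ± 0.31 in meat and 0.99 ± 0.31 in kibble.

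From week 3 to week 6 the change of PTGS1 read lower in meat than in kibble. The log2 ratio of week 6 over week 3 was -0.56, -0.75, -2.37 and -1.10 on the meat arrays and 0.18, -0.25, 0.12 and 0.011 on the kibble arrays. The 4 meat arrays all lay below the 4 kibble arrays. The later week was in Cy3 for meat and in Cy5 for kibble, and with the fitted dye term removed the order held, with a highest meat array of -0.54 and a lowest kibble array of -0.27. Among the 25793 genes and transcripts with a value on all 8 arrays, 8.07% had this order before the dye term was removed and 2.36% after it. The fit gave -0.99 ± 0.28 in meat and -0.19 ± 0.28 in kibble, and the meat change minus the kibble change was -0.79 ± 0.35. When only the 4 kibble arrays were used, the kibble value was 0.015, on the other side of 0.

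GUCY1A1, the cyclase subunit that makes cGMP, had the smallest diet difference of the 4 and the largest fitted increase from week 0 to week 9 in meat. Its log2 ratio of meat over kibble was -0.50, -0.058 and -0.15 at week 0 and 0.49, -0.72 and -0.75 at week 3. It was -0.75, -1.56, -0.47 and -0.40 at week 6 and -0.11, 0.0069, 0.35 and -0.74 at week 9. 11 of 14 arrays were below 0; week 6 was the one later week in which no array reached 0, and week 9 was split evenly around it.

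The fitted diet values of GUCY1A1 at weeks 0, 3, 6 and 9 were -0.26 ± 0.22, -0.21 ± 0.22, -0.86 ± 0.21 and -0.083 ± 0.21. The week 6 value was the lowest of the 4, at 1.82-fold lower in meat. The week 9 value changed side when arrays were centred on their median in place of loess (0.090) and when replicate 2 of the pair with meat in Cy5 was left out (0.16). At week 3 it was -0.041 without replicate 2 of the pair with meat in Cy3.

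From week 0 to week 9 the log2 ratio of GUCY1A1 was 0.53, 1.21, 1.37 and 1.55 on the meat arrays and 1.57, 0.83, 0.78 and 1.19 on the kibble arrays. All 8 were above 0 and the diets overlapped. The model gave 1.22 ± 0.20 in meat and 1.04 ± 0.20 in kibble, 2.32-fold and 2.06-fold higher at week 9, with a difference between diets of 0.18 ± 0.25. Without the 2 arrays that stood apart they were 1.31 ± 0.22 and 1.00 ± 0.22.

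For week 6 over week 3 the arrays of GUCY1A1 read -0.61, -0.49, -2.01 and -1.12 in meat and 0.023, -0.43, 0.27 and -0.22 in kibble. The 4 meat arrays lay below the 4 kibble arrays as read, but with the dye term removed the highest meat array was at -0.40 and the lowest kibble array at -0.52, so the diets overlapped. In the fit they were -0.90 ± 0.20 in meat and -0.25 ± 0.20 in kibble, and the difference between diets was -0.65 ± 0.25.

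PDE5A, the enzyme that removes cGMP, was also lower in meat. Its log2 ratio of meat over kibble was -0.25, -0.26 and -0.16 at week 0, and -0.0037, -1.37 and -0.85 at week 3. At week 6 it was -0.35, -1.46, -0.86 and -0.12, and at week 9 it was -0.16, 0.045, 0.24 and -1.55. 12 of 14 arrays were below 0. The 3 week 0 arrays lay within an SD of 0.054 of each other, and from week 3 on the SD within a week was 0.59 or more.

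The fitted diet values of PDE5A at weeks 0, 3, 6 and 9 were -0.32 ± 0.25, -0.57 ± 0.25, -0.82 ± 0.23 and -0.28 ± 0.23. The week 6 value was again the lowest, at 1.77-fold lower in meat. Without replicate 2 of the pair with meat in Cy5 the week 9 value was 0.14, and without replicate 1 of the pair with meat in Cy3 the week 3 value was -0.28.

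For week 9 over week 0 PDE5A read -0.18, 1.21, 0.94 and 1.21 on the meat arrays and 0.68, 0.54, 0.46 and 0.88 on the kibble arrays. 7 of 8 arrays were above 0, and the one below was the meat array that stood apart. Fitted log2 ratios were 0.74 ± 0.23 in meat and 0.70 ± 0.23 in kibble, and 0.95 ± 0.25 and 0.80 ± 0.25 without the 2 arrays that stood apart. From the scanner software's own processed signals they were 1.46 in meat and 1.33 in kibble, and the mean diet difference was -0.90.

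For week 6 over week 3 PDE5A read -0.15, -0.32, -1.40 and -0.66 in meat and -0.045, -0.22, 0.13 and -0.24 in kibble, so the diets overlapped. The fitted values were -0.49 ± 0.23 in meat and -0.24 ± 0.23 in kibble, a difference of -0.25 ± 0.28. Replicate 3 of the meat arrays was the lowest for all 4 genes; without it the meat values were -0.28 for PDE5A, -0.47 for TFPI, -0.67 for PTGS1 and -0.67 for GUCY1A1.

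TFPI, the inhibitor of coagulation, was second to PTGS1 in the fitted diet mean. Its log2 ratio of meat over kibble was -0.48, -0.083 and -0.52 at week 0 and -0.096, -2.02 and -1.29 at week 3. It was -0.83, -1.99, -1.20 and -0.28 at week 6 and -0.34, -0.50, 0.47 and -1.94 at week 9. 13 of 14 arrays were below 0, with the array above 0 at week 9.

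The fitted diet values of TFPI at weeks 0, 3, 6 and 9 were -0.40 ± 0.30, -0.89 ± 0.30, -1.21 ± 0.28 and -0.50 ± 0.28. They were largest at week 6, at 2.32-fold lower in meat, as for the other 3 genes. 1 array carried the week 9 value, which was 0.015 without replicate 2 of the pair with meat in Cy5. The same array had the lowest week 9 ratio for GUCY1A1 and PDE5A, and PTGS1 stayed at -0.77 without it. At week 3 the value was -0.53 without replicate 1 of the pair with meat in Cy3.

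For week 9 over week 0 TFPI read -0.006, 1.16, 1.18 and 1.04 in meat and 1.62, 0.96, 0.77 and 1.33 in kibble. Again 7 of 8 arrays were above 0, and the meat array that stood apart had the lowest value. The fitted values were 0.95 ± 0.27 in meat and 1.06 ± 0.27 in kibble, with a difference between diets of -0.11 ± 0.34, and they were 1.10 ± 0.30 and 1.05 ± 0.30 without the 2 arrays that stood apart. For week 6 over week 3 TFPI read -0.40, -0.80, -1.96 and -0.98 in meat and 0.091, -0.40, 0.20 and -0.15 in kibble. With the dye term removed the highest meat array was at -0.22 and the lowest kibble array at -0.58, so the diets overlapped. The fitted values were -0.71 ± 0.27 in meat and -0.38 ± 0.27 in kibble, a difference of -0.33 ± 0.34.

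Slide and week pair could not be separated fully. The meat/kibble arrays of each week lay on 1 slide of their own, so week and slide cannot be told apart for them. The week 9 over week 0 arrays lay on 2 slides with both diets on each. After removal of the fitted dye term, the mean of the meat arrays of the first and the second slide was 0.74 and 1.46 for PTGS1, 0.96 and 1.55 for GUCY1A1, 0.54 and 1.10 for PDE5A, and 0.75 and 1.29 for TFPI. The kibble means were 1.21 and 0.92 for PTGS1, 1.11 and 0.90 for GUCY1A1, 0.59 and 0.65 for PDE5A, and 1.11 and 0.87 for TFPI. All 16 means were above 0 on both slides, and the meat means were lower on the first slide, which holds the array that stood apart. For week 6 over week 3 in meat, the 2 slides gave -0.63 and -1.71 for PTGS1, -0.46 and -1.47 for GUCY1A1, -0.21 and -1.01 for PDE5A, and -0.42 and -1.29 for TFPI. In kibble the slide means of the 4 genes lay between -0.33 and 0.044.

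On time arrays the later week was always in Cy3 for meat and always in Cy5 for kibble, so their direction in the fit rests on the dye term, which is learned from the meat/kibble arrays as well. That term was small beside the changes from week 0 to week 9, at 0.023 for PTGS1, 0.091 for GUCY1A1, 0.019 for PDE5A and 0.18 for TFPI (log2 of Cy5 over Cy3).

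The level of each gene, as log2 intensity of a channel normalised between arrays, gives an order of the 8 groups within a gene. For PTGS1 the median level at weeks 0, 3, 6 and 9 was 9.87, 10.7, 9.99 and 11.2 in meat and 10.6, 11.7, 11.6 and 11.9 in kibble. Kibble at weeks 9, 3 and 6 led, followed by meat at weeks 9 and 3, kibble at week 0, and meat at weeks 6 and 0. Neighbours in that order differed by less than the larger of their SDs, except meat at week 6 and kibble at week 0, whose gap was 1.18 times that SD.

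For GUCY1A1 the medians at weeks 0, 3, 6 and 9 were 8.30, 9.36, 8.51 and 9.63 in meat and 8.46, 9.73, 9.77 and 9.77 in kibble. Meat at week 6, kibble at week 0 and meat at week 0 lay below the other 5 groups by a gap of 0.85, which was 1.42 times the larger SD of the neighbours. No other gap in the order reached 1 SD.

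For PDE5A the medians at weeks 0, 3, 6 and 9 were 7.13, 7.62, 7.24 and 8.13 in meat and 7.34, 8.12, 7.98 and 8.06 in kibble. For TFPI they were 8.30, 9.21, 8.46 and 9.48 in meat and 8.64, 9.86, 9.74 and 9.80 in kibble. In PDE5A meat at week 9 led by a gap of 0.0082 over kibble at week 3, and in TFPI the 3 later kibble groups led. In both genes each neighbour in the order lay within 1 SD of the next, and in all 4 genes meat at week 0 had the lowest median. Slides also enter these levels, since each pair of weeks was hybridised on slides of its own.

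**Figure D2:**
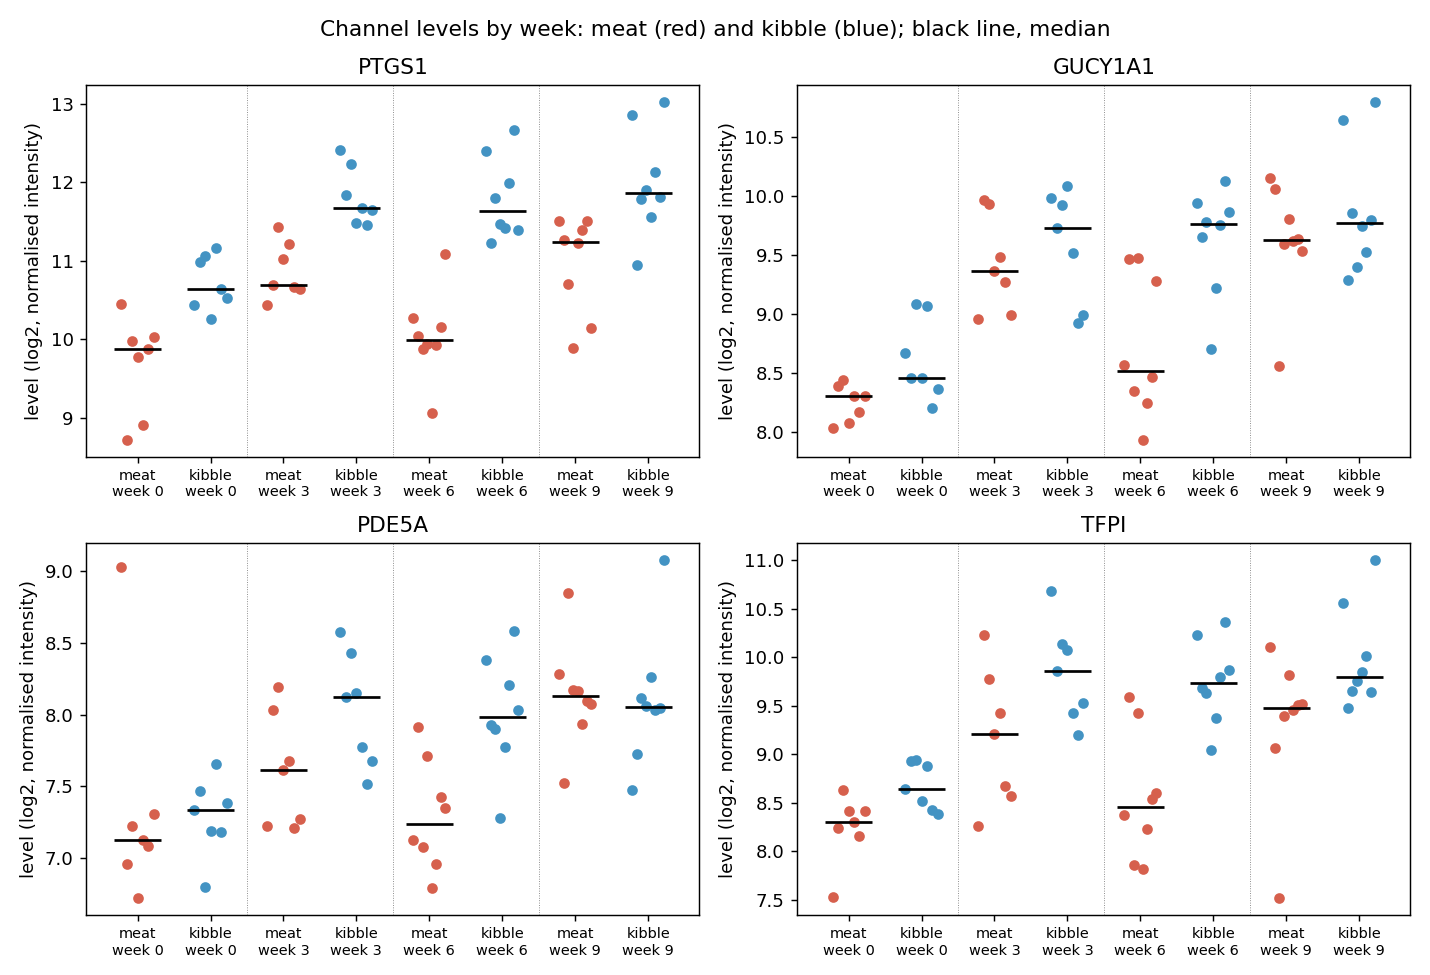
Channel levels (log2 normalised intensity) of PTGS1, GUCY1A1, PDE5A and TFPI in the 8 groups, meat in red and kibble in blue at each week, with the median as a black line. Meat at week 0 has the lowest median in each panel, and kibble at weeks 3, 6 and 9 has medians of 11.6 or more for PTGS1.

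Probes of one gene gave the same direction. Over the 30 arrays log2 ratios of Cy5 over Cy3 were compared with the fitted dye term removed. PTGS1 probe 2 followed probe 1 with a Pearson r of 0.987, and TFPI probe 2 followed its probe 1 with 0.971. For PDE5A, r was 0.995 for probe 2 and 0.943 for probe 3. These probes share their samples, arrays and labelling, so the values describe agreement of measurement. In all 9 comparisons within a diet or a week, each further probe had the fitted sign of probe 1.

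The dimmer probes gave smaller ratios. The slope through 0 on probe 1 was 0.915 for PDE5A probe 2, 0.792 for PTGS1 probe 2, 0.676 for TFPI probe 2 and 0.535 for PDE5A probe 3. As the mean over weeks 3, 6 and 9 the second probes read -0.98 ± 0.16 for PTGS1, -0.59 ± 0.15 for TFPI and -0.50 ± 0.14 for PDE5A, and PDE5A probe 3 read -0.38 ± 0.083. The direction thus held over the probes of 3 genes while the size depended on the probe; GUCY1A1 has no further probe. The 5 spots of PDE5A probe 1 differed on an array by a median SD of 0.0753 in log2 ratio, against an SD of 0.657 between the 11 meat/kibble arrays of weeks 3, 6 and 9.

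**Figure D3:**
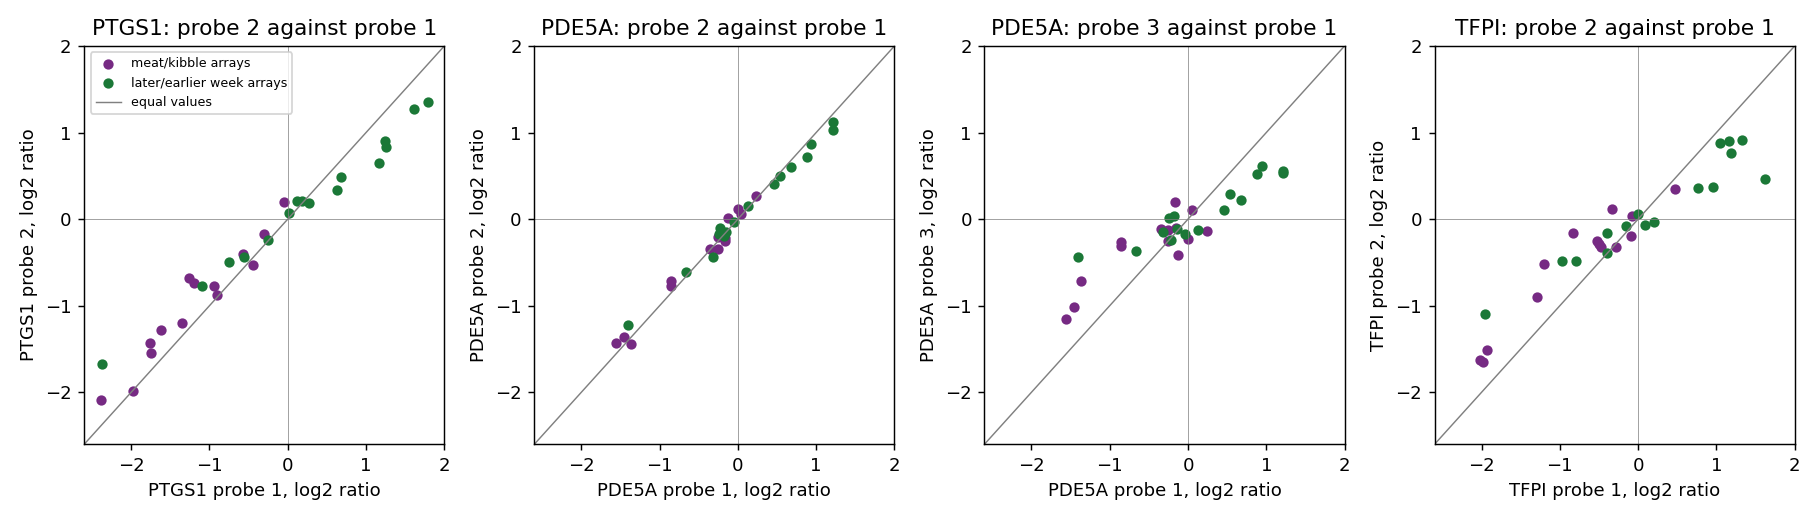
log2 ratio of each further probe against that of probe 1 of its gene on the 30 arrays, with meat/kibble arrays in purple, later/earlier week arrays in green and the line of equal values in grey. The points fall near straight lines, flatter than the line of equal values for PDE5A probe 3. On the ratios of Cy5 over Cy3 with the dye term removed, r was 0.943 to 0.995 and that slope 0.535. The points show meat over kibble or later over earlier week, with the dye term left in.

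The log2 ratios of the 4 genes were correlated over the arrays. Between pairs of genes Pearson's r over the 30 arrays was between 0.845, for PTGS1 and GUCY1A1, and 0.978, for PDE5A and TFPI, and Spearman's rho lay between 0.804 and 0.957. On the 16 time arrays r was 0.957 to 0.988, and on the 14 meat/kibble arrays it was 0.777 to 0.987. These values use Cy5 over Cy3 with the dye term removed, and the samples compared swap dyes between arrays. On time arrays the later week was in Cy3 for meat and in Cy5 for kibble. Genes that change in the same direction thus get a high r from the array layout. The 4 genes were also chosen on these ratios, and the arrays share samples and slides, so the values are descriptions. On meat/kibble arrays PTGS1 was below GUCY1A1 on 13 of 14, below PDE5A on 13 of 14 and below TFPI on 9 of 14. Sizes across genes depend on the signals used. From the scanner software's processed signals the week 6 values were -1.40 for PDE5A and -1.38 for TFPI, against -0.82 and -1.21 in the main fit. With those signals the mean diet differences kept their order, at -1.22 for PTGS1, -0.99 for TFPI, -0.90 for PDE5A and -0.44 for GUCY1A1. Replicate 2 of the week 9 pair with meat in Cy3 set PTGS1 apart from the rest: it read -1.98 there, against 0.0069 for GUCY1A1, 0.045 for PDE5A and -0.50 for TFPI.

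Among the 1086 other named genes, the one most like PTGS1 over the 30 arrays was SELP, the platelet and endothelial adhesion receptor P-selectin (r = 0.935). SVIP, which encodes a small inhibitor of protein breakdown at the endoplasmic reticulum (0.931), RLN2, a relaxin hormone gene (0.930), GP1BA, the platelet receptor for von Willebrand factor (0.928), and STOM, the membrane protein stomatin (0.918), came next. For GUCY1A1 they were SELP (0.934), RLN2 (0.924), SEC11C, a signal peptidase subunit (0.917), TFPI (0.907) and PDE5A (0.897). For PDE5A they were TFPI (0.978), P2RY12, the ADP receptor of platelets (0.948), IL2RA, a chain of the interleukin-2 receptor (0.944), GATM, an enzyme of creatine synthesis (0.941), and RLN2 (0.935). For TFPI they were PDE5A (0.978), P2RY12 (0.966), RLN2 (0.961), GP1BA (0.959) and SVIP (0.958). The median r of a named gene with each of the 4 was between 0.0043 and 0.010. These r also use Cy5 over Cy3, so genes that share the direction of the changes get a high r from the array layout.

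The other measured genes of the same pathways are few and their counts lie near the share of all genes and transcripts, so nothing is read from the counts about the pathways. Of 27 listed prostanoid and other eicosanoid genes 10 were measured, and 0 of 10 passed the limma test in the mean diet difference, where 14.9% of all genes and transcripts did; 0 of 10 had an unadjusted p under 0.05. PTGS2, which encodes the inducible cyclooxygenase-2, read 0.38 ± 0.21 for meat over kibble (limma adjusted p = 0.263, above 0 on 9 of 11 arrays). HPGD, which inactivates prostaglandins, read -0.35 ± 0.27 (limma adjusted p = 0.485). The list's median log2 ratio was -0.0064, against 0 over all genes.

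For week 9 over week 0 the prostanoid list again had 0 of 10 past the limma test in meat and 0 of 10 in kibble, against backgrounds of 8.04% and 13.6%, and 2 genes in each diet had an unadjusted p under 0.05. PTGER4, a receptor for prostaglandin E2, read -0.25 ± 0.099 in meat (limma adjusted p = 0.122) and -0.29 ± 0.099 in kibble (limma adjusted p = 0.0507). ALOX5, which starts leukotriene synthesis, read -0.60 ± 0.25 in meat (limma adjusted p = 0.154) and -0.64 ± 0.25 in kibble (limma adjusted p = 0.0965). PTGS2 read -0.44 ± 0.32 in meat and -0.28 ± 0.32 in kibble (limma adjusted p = 0.481 and 0.643). These values were below 0, where PTGS1 was above it, but none passed the test and the genes were named for their small p or close role. Over the list 3 of 10 were above 0 in meat and 2 of 10 in kibble, with a median of -0.043 in each. Without the 2 arrays that stood apart 1 of 10 passed in each diet, and the kibble count was 2 without the meat one alone.

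Of 35 listed nitric oxide and cGMP genes 7 were measured, with PDE5A and GUCY1A1 not in the list. NOS3, the endothelial nitric oxide synthase, was lower in meat over weeks 3, 6 and 9 by a log2 ratio of -0.16 ± 0.038 (limma adjusted p = 0.00581, 10 of 11 arrays). It was the 1 of 7 to pass, where 14.9% of all genes and transcripts did; the list's median was -0.049. The NOS3 call was lost with arrays centred on their median, with all probes of a gene averaged and with the direct arrays alone, where 0 of 7 passed. GUCY1B1, the beta subunit that pairs with GUCY1A1 in the cyclase, read -0.049 ± 0.043 (limma adjusted p = 0.546), and was well above background in 27 of 60 channels. VASP, a protein that the cGMP-dependent kinase phosphorylates, read -0.11 ± 0.074 (limma adjusted p = 0.362).

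PDE6G, the inhibitory subunit of the photoreceptor phosphodiesterase, was the 1 gene of this list that passed for week 9 over week 0, and it fell, as did 4.31% of all genes and transcripts in meat and 8.59% in kibble. It read -0.45 ± 0.11 in meat (limma adjusted p = 0.0155, 3 of 4 arrays) and -0.49 ± 0.11 in kibble (limma adjusted p = 0.00496, 4 of 4 arrays). The meat count of the list was 0 with arrays centred on their median, with scaling between arrays, with the loop or the direct arrays alone, and without replicate 2 or replicate 3 of the meat arrays. GUCY1B1 read 0.043 ± 0.065 in meat and 0.035 ± 0.065 in kibble, and VASP read -0.069 ± 0.11 in meat and 0.11 ± 0.11 in kibble. The list's median was 0.0026 in meat and 0.028 in kibble, with over 1 log2 unit for GUCY1A1 beside it.

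Of 40 genes of coagulation, anticoagulation and fibrinolysis whose results are given here 7 were measured. In the mean diet difference 0 of 7 passed the limma test, with 2 of 7 at an unadjusted p under 0.05; 2 of 7 passed with scaling between arrays or with array weights. THBD, the thrombin receptor thrombomodulin, read -0.11 ± 0.040 (limma adjusted p = 0.0689), KLKB1, plasma prekallikrein, -0.11 ± 0.046 (limma adjusted p = 0.105), and the median of the 7 was -0.10. TBXAS1, TBXA2R, PRKG1, TFPI2 and F3, the other genes closest in role to the 4, were not among the named genes measured.

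For week 9 over week 0 F9, coagulation factor IX, fell in kibble with -0.82 ± 0.21 (limma adjusted p = 0.00906, 4 of 4 arrays) and read -0.63 ± 0.21 in meat (limma adjusted p = 0.0617, 3 of 4 arrays). It was the 1 of 7 that passed in kibble, where 8.59% of all genes and transcripts were lower, and the count was 0 with the loop or the direct arrays alone and without replicate 4 of the kibble arrays. In meat 0 of 7 passed the limma test, with 3 of 7 at an unadjusted p under 0.05, and 1 of 7 passed without the 2 arrays that stood apart. In that comparison 1 of 7 was above 0 in meat and 4 of 7 in kibble, and the highest values were 0.034 in meat and 0.057 in kibble. Their median was -0.13 in meat and 0.0082 in kibble.

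**Figure D4:**
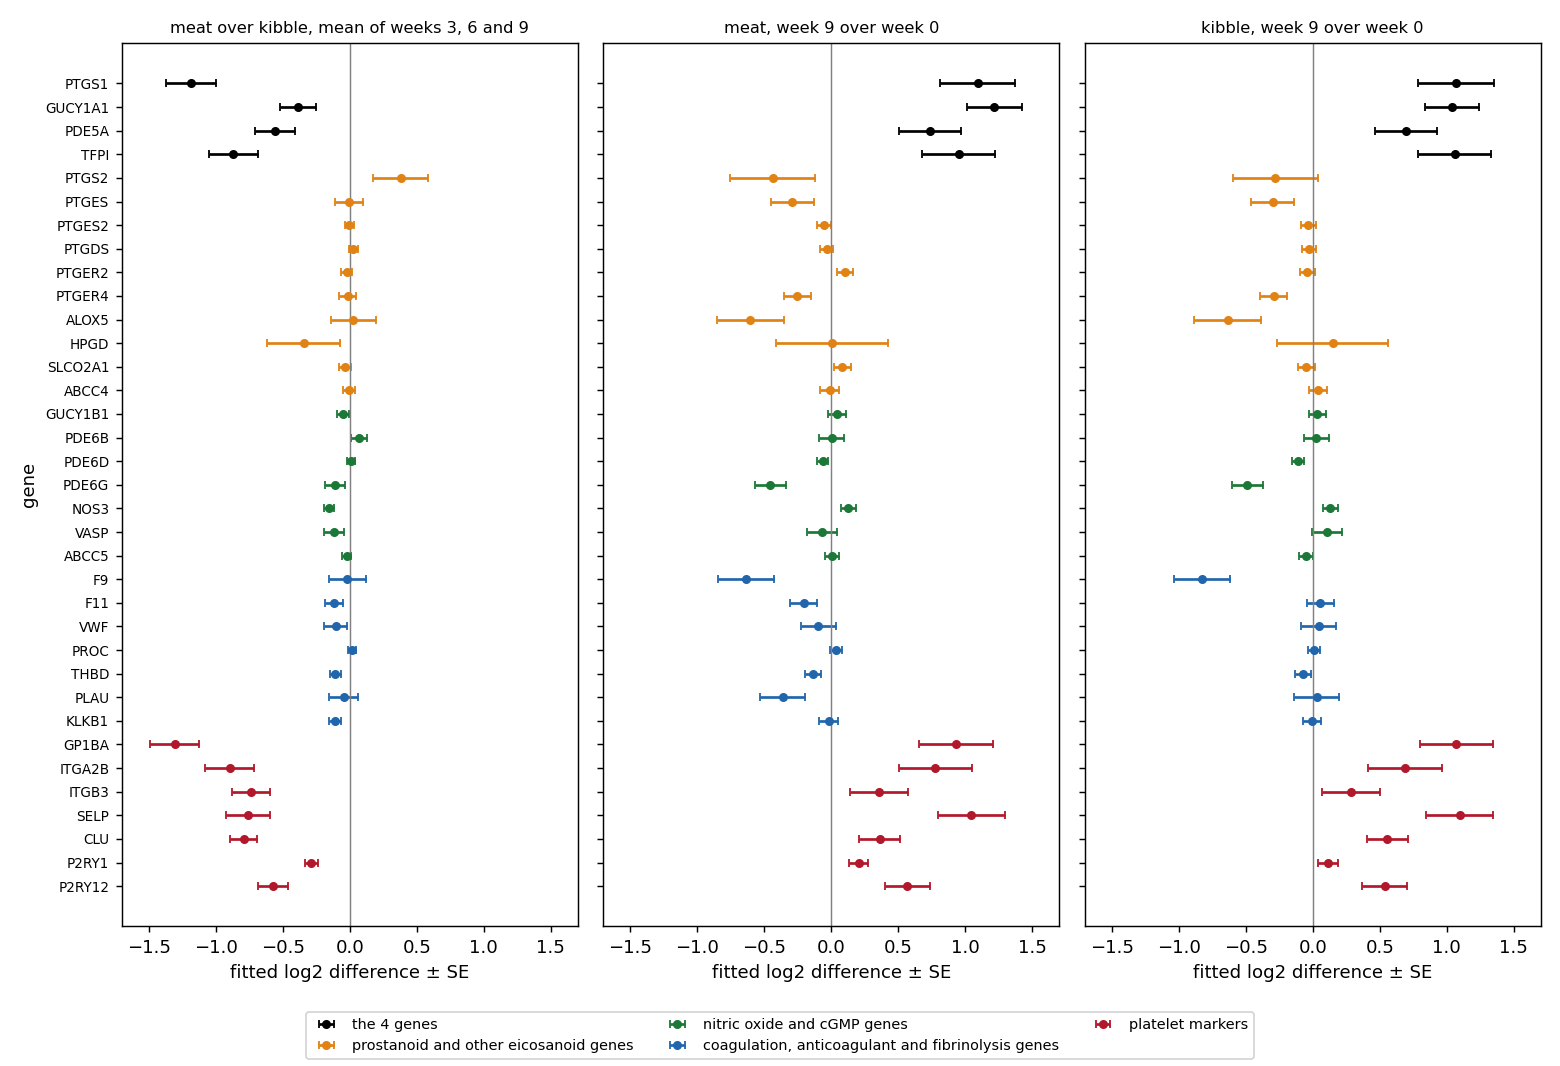
Fitted log2 differences ± SE of the 4 genes (black), the measured prostanoid (orange), nitric oxide and cGMP (green) and 7 coagulation (blue) genes and the 7 measured platelet markers (red) in the mean diet difference and in week 9 over week 0 of each diet. The 4 genes and the platelet markers lie left of 0 in the first panel and right of 0 in the others, and the median of the prostanoid list is -0.0064, -0.043 and -0.043.

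Platelet markers had the pattern of the 4 genes. Of 28 listed markers 7 were measured, none of them among the 4 genes. The list was chosen with earlier results of these data known, so its counts are a description. Over weeks 3, 6 and 9, 7 of 7 were lower in meat at a limma adjusted p under 0.05, where 7.95% of all genes and transcripts were. The list's median log2 ratio was -0.76. At week 0, when feeding began, 7 of 7 were below 0 as well, with a median of -0.48. GP1BA read -1.31 ± 0.18 (limma adjusted p = 3.73e-05) and CLU, the granule protein clusterin, -0.79 ± 0.10 (limma adjusted p = 1.61e-05), both below 0 on 11 of 11 arrays. P2RY12 read -0.57 ± 0.11 (limma adjusted p = 0.000881) and P2RY1, another ADP receptor, -0.29 ± 0.048 (limma adjusted p = 0.000285).

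At week 9 over week 0 the same list had 3 of 7 higher in meat, against 3.73% of all genes and transcripts, and 4 of 7 higher in kibble, against 5.05%, with medians of 0.57 and 0.56. SELP rose by 1.05 ± 0.25 in meat (limma adjusted p = 0.0116) and by 1.10 ± 0.25 in kibble (limma adjusted p = 0.00411), on 4 of 4 arrays each. GP1BA rose by 0.93 ± 0.27 in meat (limma adjusted p = 0.0351) and by 1.07 ± 0.27 in kibble (limma adjusted p = 0.00937). The counts were 7, 3 and 4 of 7 without the 2 arrays that stood apart, but the meat count was 0 on the 4 direct arrays alone and ranged from 0 to 5 when single arrays were left out. The kibble count was 1 with arrays centred on their median.

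Over the 30 arrays the log2 ratio of TFPI followed the median of the 7 platelet markers with r = 0.961, PTGS1 with 0.941, PDE5A with 0.939 and GUCY1A1 with 0.860. These r use Cy5 over Cy3 with the dye term removed. Genes lower in meat and higher at week 9 get a high r here, because the samples swap dyes between arrays. No such r was computed for the other marker lists, so nothing particular to platelets is read from these values. The sign was shared on 29 arrays for PTGS1, 28 for TFPI, 27 for GUCY1A1 and 26 for PDE5A. The summed linear intensity of the 7 markers had medians of 11100 in meat and 18000 in kibble at week 0, 19000 and 27400 at week 3, 11100 and 35600 at week 6, and 25000 and 31300 at week 9. At weeks 0, 3 and 9 the ranges of meat and kibble overlapped. At week 6 they did not, with 8660 to 21300 in meat and 23900 to 55200 in kibble. How many of all genes and transcripts had separate ranges at week 6 was not counted, so nothing is read from this gap. All 7 markers were well above background in 59 or 60 of 60 channels. The part of platelet RNA in the ratios of PTGS1, GUCY1A1, PDE5A and TFPI was not tested, and in these bulk samples fewer cells of a type and less RNA per cell cannot be told apart.

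**Figure D5:**
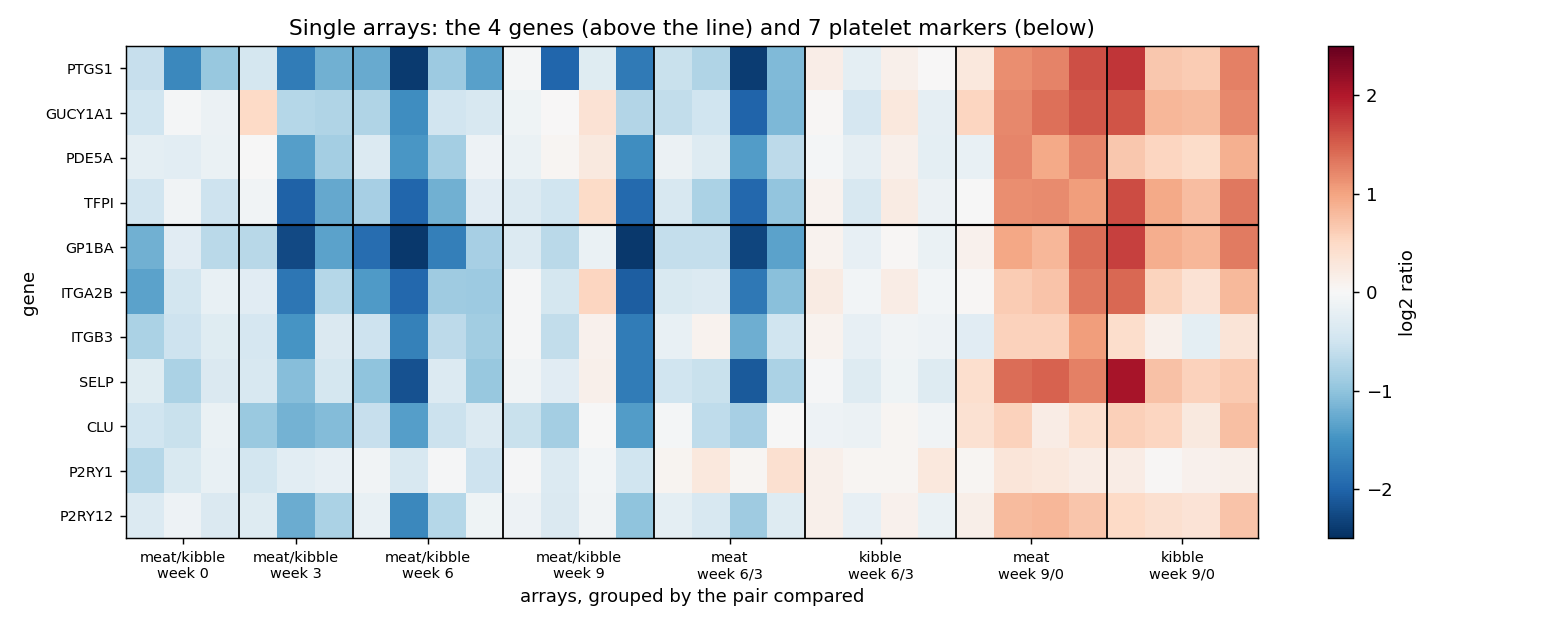
log2 ratios on the 30 single arrays (columns, grouped by the pair compared) of PTGS1, GUCY1A1, PDE5A and TFPI above the line and of 7 platelet markers below it, from -2.5 (blue) to 2.5 (red). Blue and red columns run through both blocks, and the platelet median shares the sign of PTGS1 on 29 of 30 arrays.

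Markers of other blood cells moved as well in the mean diet difference. Of the measured markers, 4 of 5 of monocytes, 3 of 3 of neutrophils, 5 of 6 of cytotoxic T and NK cells and 1 of 3 of red cells were lower in meat (limma adjusted p under 0.05), as were 7.95% of all genes and transcripts, and 1 of 2 of T cells was higher, as were 6.97%. With arrays centred on their median, 2 of 5 monocyte, 2 of 3 neutrophil and 2 of 6 cytotoxic markers passed. The cytotoxic count was also 2 with the direct arrays, 3 with array weights and 3 to 6 with single arrays left out. The red cell count was 0 with the direct arrays, with no filter on dim probes and in 5 of 30 omissions of single arrays, and the T cell count was 0 with the direct arrays. CYBB of monocytes, the core of the phagocyte oxidase, was lower in meat by 0.69 ± 0.10 (limma adjusted p = 5.75e-05). CAMP of neutrophils, a granule peptide, was lower by 2.54 ± 0.29 (limma adjusted p = 3.93e-06). CCL5 of cytotoxic cells, a chemokine, was lower by 0.92 ± 0.15 (limma adjusted p = 0.000269). CD28, a costimulatory receptor of T cells, was higher in meat by 0.25 ± 0.054 (limma adjusted p = 0.00277). At week 0, when feeding began, the list medians of meat over kibble were -0.36 for monocytes, -0.40 for neutrophils and -0.089 for cytotoxic cells. They were 0.034 for red cells and 0.14 for T cells. The lowest of the 3 neutrophil markers already read -1.86 at week 0. Over weeks 3, 6 and 9 the medians were -0.46, -0.77, -0.38, -0.0985 and 0.15 in the same order. The size differed between weeks 3, 6 and 9, with list medians of -0.81, -0.36 and -0.34 for monocytes and -1.17, -0.57 and -0.59 for neutrophils. For cytotoxic cells they were -0.60, -0.58 and -0.03, and 3 of 6 markers were above 0 at week 9.

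For week 9 over week 0 the calls in those lists were few and changed with the processing, so nothing is read from them about these cell types. As a background, 3.73% of all genes and transcripts were higher and 4.31% lower in meat, and 5.05% were higher and 8.59% lower in kibble. CTSS of monocytes, a lysosomal protease, read 0.53 ± 0.14 in meat (limma adjusted p = 0.0223) and 0.44 ± 0.14 in kibble (limma adjusted p = 0.0387), the 1 of 5 to pass in each diet. The monocyte count was 0 in meat in 4 of 16 settings, and in kibble it was 0 with the replicate block, with median centring and without the 2 arrays that stood apart, and 0 to 3 with single arrays left out.

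Of the neutrophil markers 0 of 3 passed the limma test in meat, with 0 at an unadjusted p under 0.05. ELANE, neutrophil elastase, read -0.23 ± 0.064 in kibble (limma adjusted p = 0.0178), a call that 5 of 16 settings did not give. Of the cytotoxic markers 0 of 6 passed the limma test in either diet, with 0 of 6 in meat and 1 of 6 in kibble at an unadjusted p under 0.05; in kibble 1 passed without the 2 arrays that stood apart and 2 with median centring. Of the red cell markers 1 of 3 passed in meat and 2 of 3 in kibble, as lower. They include SLC4A1, the anion exchanger of red cells, which was well above background in 17 of 60 channels, so that its size is uncertain; with a filter of 30 channels the counts were 0 and 1, and without the 2 arrays that stood apart they were 1 and 1. CD4 of T cells read -0.90 ± 0.27 in meat (limma adjusted p = 0.0426) and -0.78 ± 0.27 in kibble (limma adjusted p = 0.057). The T cell count in meat, 1 of 2, was 0 in 8 of 16 settings and in 10 of 30 omissions of single arrays, and in kibble it was 1 without the 2 arrays that stood apart.

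The 1 measured endothelial marker, the vascular growth factor receptor KDR, read -0.29 ± 0.11 in the mean diet difference (limma adjusted p = 0.0798), 0.36 ± 0.17 for week 9 over week 0 in meat (limma adjusted p = 0.208) and 0.18 ± 0.17 in kibble (limma adjusted p = 0.557). The 1 measured B cell marker, MS4A1, read 0.014 ± 0.19 in the mean diet difference and, for week 9 over week 0, 0.50 ± 0.295 in meat and 0.26 ± 0.295 in kibble (limma adjusted p = 0.980, 0.363 and 0.637). The part of these cell types in the ratios of the 4 genes was not tested.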

How the data were processed

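Per the labels' protocols, total RNA was amplified and labelled with Cy3 or Cy5; per the submitters' processing notes, the authors used Agilent Feature Extraction 10.10.1.1 and limma. The deposited scanner files give each spot's median intensity and local background in arbitrary units, and the deposited matrix gives the authors' normalised log2 ratios, used as an alternative only. Here limma 3.58.1 (R 4.3.3) corrected the median signals for background (normexp, offset 50; the files used hold no mean signal) and applied loess within arrays; controls and 979 outlier spots had no weight, and 0 spots were saturated. A probe was kept if 7 or more of the 60 channels were well above background (31691 probes), and the brightest probe stood for its gene or transcript, giving 25950, of which 1087 have a symbol; names came from the transcripts by RefSeq's gene table. Levels used loess and Aquantile between arrays. The number of arrays limits the precision.

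1 model over the 30 arrays had a term for each group within each loop (weeks 0 and 9, weeks 3 and 6) and a dye term, with 23 residual degrees of freedom; p-values were Benjamini-Hochberg adjusted over all genes within a comparison, with 0.05 as threshold. It was tested on simulated data. Samples were grouped by the labels of their 2 channels. The 4 genes and the gene lists were chosen with earlier results of these data known. Named from each list were up to 4 called genes of smallest p per comparison, or 2 where none was called, and genes of closest role; not all are printed, and 1 gene of the coagulation list is not reported here and enters no list count. Likeness is Pearson's r of the log2 ratios of Cy5 over Cy3 on 30 arrays, with the dye term removed. Alternatives changed the background, normalisation, filter, dye term, blocks, weights, probes and arrays.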

Additional observations from a re-analysis of the deposited data

Results flagged for a closer look

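Of 24 groups of array ratios and 32 groups of channel levels of the 4 genes, 5 had a sample far from the others by Dixon's test, which chance does in about 1 group of 20. All 5 came from replicate 1 of the meat pair of weeks 9 and 0, the array with 42898 and 43610 spots well above background. For TFPI the log2 ratio of week 9 over week 0 was -0.006 there, against 1.04 to 1.18 on the other meat arrays. In its week 9 channel the level was 8.56 for GUCY1A1 and 7.52 for TFPI, the lowest of 8 meat week 9 samples. In its week 0 channel the level was 9.03 for PDE5A, the highest of 7 meat week 0 samples, and 7.52 for TFPI, the lowest of them.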

How the results depend on the processing

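For the 36 fitted values of the 4 genes, 16 other settings and 30 single arrays left out gave 1652 values, of which 1633 kept their direction and lay within 1 SD of the arrays, 14 moved further and 5 changed sign. The sign changes were GUCY1A1 at week 9 with median centring (0.090), PTGS1 for week 6 over week 3 in kibble on the direct arrays alone (0.015), and, without replicate 2 of the week 9 pair with meat in Cy5, GUCY1A1 (0.16), PDE5A (0.14) and TFPI (0.015) at week 9. With single arrays left out, the week 9 diet values ranged from -0.19 to 0.16 for GUCY1A1, from -0.44 to 0.14 for PDE5A and from -0.76 to 0.015 for TFPI. The week 0 diet value of PDE5A, whose arrays lie close together, was -0.53 with Feature Extraction's processed signals, -0.39 without the 2 arrays that stood apart (a setting chosen after seeing the data), -0.38 with array weights, -0.38 with the replicate block, -0.26 with scaling between arrays, -0.25 with the loop alone, -0.23 with the direct arrays and -0.40 to -0.23 with single arrays left out. Processed signals also moved PDE5A for week 9 over week 0 in meat (1.46) and kibble (1.33) and for week 6 over week 3 in kibble (-0.46), where the direct arrays gave -0.064 for TFPI. The cause was not tested.

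In the mean diet difference the platelet count stayed 7 of 7 in 15 settings and 30 omissions. The nitric oxide and cGMP count was 0 with median centring, with the mean over probes and with the direct arrays; the coagulation count, 0 of 7, was 2 with scaling or array weights, 1 with the direct arrays and 0 to 1 with single arrays left out. For week 9 over week 0 the platelet count in meat was 0 with the loop or the direct arrays alone, 1 with scaling and 0 to 5 with single arrays left out, and in kibble 1 with median centring and 2 to 5. Over all genes the mean diet difference gave 3870 calls, 1080 with median centring and 2388 with the direct arrays. Week 9 over week 0 gave 2087 calls in meat (0 with the direct arrays, 114 with the loop, 764 with median centring, 1234 with scaling, 3247 with array weights, 268 to 2660 with single arrays left out) and 3539 in kibble (1816 with the direct arrays, 5629 with median centring, 2091 to 3799). The loop alone was not run for the mean diet difference, which spans both loops.

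Same-numbered arrays of the 2 diets had residual correlations of 0.0816 to 0.201 in weeks 0 and 9 and -0.78 to 0.135 in weeks 3 and 6. In either, 0 of 4 correlated best with their own number. Whether the replicate numbers pair arrays within a diet was not checked. With the replicate block the calls were 3755 in the mean diet difference, 2027 for week 9 over week 0 in meat and 3163 in kibble. Signal over background limits GUCY1B1, seen in 27 of 60 channels.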
